A study of Mus musculus with 6 samples.

Results

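The B cell receptor (BCR) signalling genes described here are 34 genes chosen by symbol, from the receptor chains to the kinases, adaptors and transcription factors behind them. All 34 were found once each among the 35275 genes of the deposited table. The data are FPKM values (fragments scaled to gene length and to library depth) from bulk RNA of splenic B cells. The mice were C57BL/6 animals aged 6 to 8 weeks, either wild type (WT) or carrying CD40LΔ5, an allele of the CD40 ligand gene that the labels name without describing it. All were injected with SRBC (sheep erythrocytes, which evoke an antibody response that needs T cells), and spleens were taken on day 8. B cells were isolated with a magnetic pan-B cell kit, so the libraries pool all B cell subsets. The labels give 3 libraries to each genotype. No untreated animals are among the samples, so all levels are those of immunised mice. The labels do not say whether a library is 1 animal or a pool, so p-values measure the spread between these libraries only.

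Binding of antigen clusters the BCR, and Src family kinases then phosphorylate the tails of its signalling chains, CD79A and CD79B. The kinase SYK docks there and, with BTK and the adaptor BLNK, activates the phospholipase PLCG2. From there the signal branches to calcium and NFAT, to protein kinase C and NF-kB through BCL10 and MALT1, and to Ras. PI3 kinase acts beside it, and inhibitory receptors such as CD22 and CD72 recruit phosphatases that damp it. In the germinal centre this signal and CD40 ligand from T cells together govern selection of B cells.

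The libraries are not placed alike in all deposited sources. In the authors' deposited table of group means, the MUT column is the mean of CD40LΔ5 replicate 2 with WT replicates 1 and 2, by their labels. Its WT column is the mean of WT replicate 3 with CD40LΔ5 replicates 1 and 3. These are called the MUT set and the WT set here. Which source is right was not tested, so each comparison is given by the labels and by the table, and a library is always called by its label. The targeted gene, Cd40lg, which T cells mainly express, was low everywhere, at 0.533, 0.428 and 0.203 FPKM in WT replicates 1 to 3 and 0.118, 0.483 and 0.144 FPKM in CD40LΔ5 replicates 1 to 3, on 4 to 17 reads.

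Libraries held 24320080 to 27866611 reads on genes, and immunoglobulin genes took 2.19% to 8.59% of them. That share was 6.78% in WT replicate 2, 8.59% in WT replicate 3 and 8.42% in CD40LΔ5 replicate 3, and 2.19% to 3.88% in the others. B cell markers were high in every library: the 6 found summed to 9787 to 11267 FPKM. Most of this sum was Cd74, at 8070 to 9546 FPKM, and Ms4a1, which encodes CD20, was at 536 to 620 FPKM. Markers of other cell types were read too, and no marker of any list was at 0 in every library. Which cells these reads came from was not tested. The 16 T cell markers summed to 73.2 to 90.9 FPKM, the 10 natural killer cell markers to 29.3 to 68.9 FPKM and the 11 macrophage markers to 138 to 379 FPKM. The 7 erythroid markers summed to 313 to 1180 FPKM and the 10 neutrophil markers to 46.8 to 606 FPKM. In bulk RNA, fewer cells of a type and less RNA per cell cannot be told apart.

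All 34 BCR signalling genes were clearly expressed in all 6 libraries. Their median lay at the 92.3 percentile of the 11252 genes tested, which are those whose mean reached 1 FPKM. Means over the 6 libraries were at or above 100 FPKM for 12 members, between 10 and 100 FPKM for 20 and under 10 FPKM for 2. No member rested on fewer than 438 reads in any library. FPKM is a level per gene length, so members can be compared with each other. Of the 33 pairs of neighbours in the order of level, 7 had ranges over the libraries that did not overlap, and the other neighbours overlapped. The order began with Cd79a and Cd79b, went on to Ptpn6, Ptprc, Cd22, Csk, Syk and Blk, and ended with Itpr2, Nfatc2 and Vav3.

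**Figure D1:**
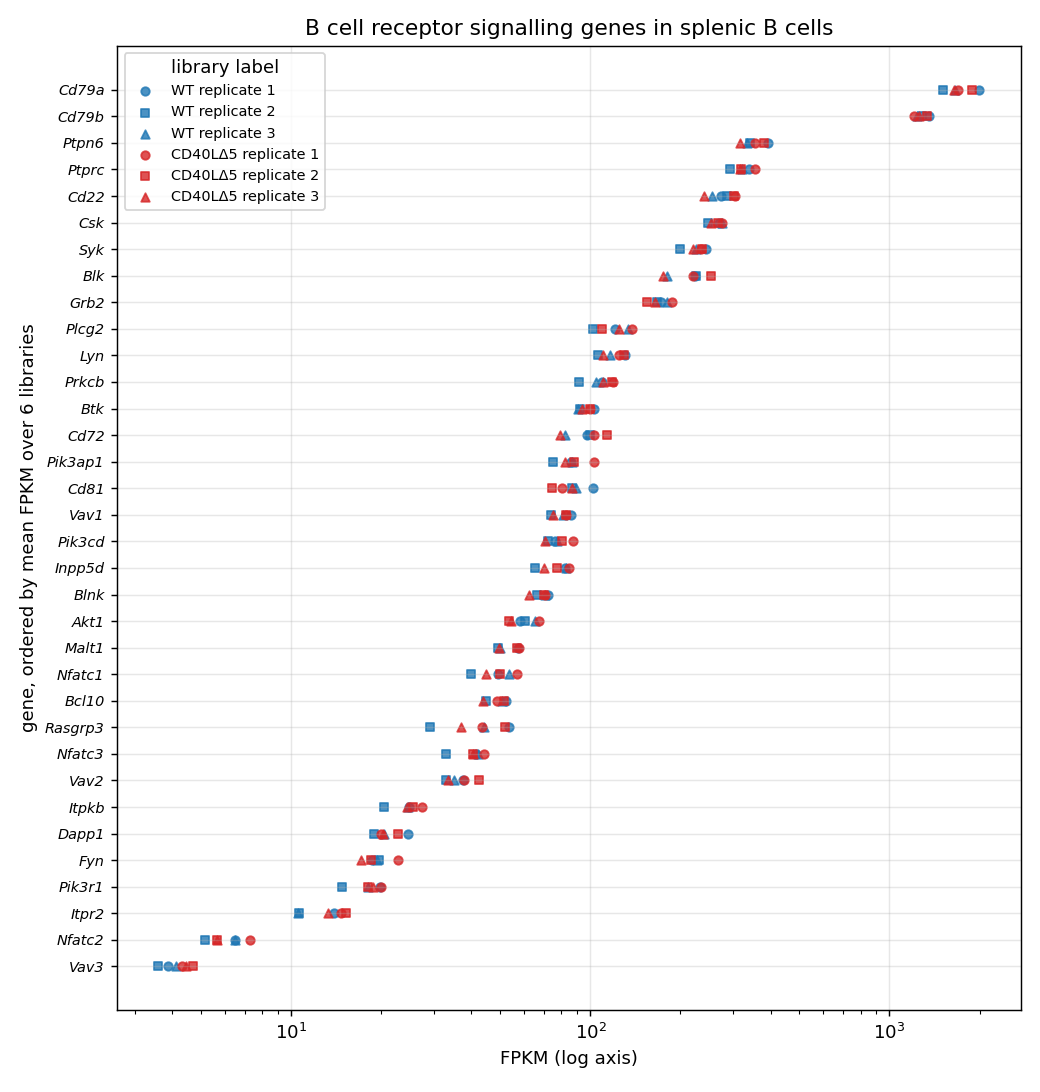
Level of each of the 34 genes in each library, as FPKM on a log axis, with genes ordered by their mean; blue points are libraries labelled WT and red points those labelled CD40LΔ5. The 6 points of a gene lie close together compared with the span between genes, which runs from 3.59 FPKM (Vav3) to 1999 FPKM (Cd79a).

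Variation between libraries was small. The coefficient of variation over the 6 libraries had a median of 9.51% over the 34 members and ran from 4.45% (Cd79b) to 21.2% (Rasgrp3). Over the 8427 genes within the members' range of mean level the median was 9.66%. Most of these genes lay below the median member, at the 92.3 percentile of all genes tested, so levels were not matched. The highest library exceeded the lowest by less than 1.5-fold for 33 members. The exception was Rasgrp3, an exchange factor that activates Ras downstream of diacylglycerol. It measured 53.2, 29.0 and 44.2 FPKM in WT replicates 1 to 3 and 43.4, 51.9 and 36.9 FPKM in CD40LΔ5 replicates 1 to 3, which is 1.83-fold between the extremes. Its lowest value was that of WT replicate 2. By the labels each group held high and low libraries, and by the table the MUT set held the highest and the lowest values and the WT set those between.

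The stretches before the start sites of 5 members are shown because the differences described below turn on these genes and their RefSeq start lies within 20 bases of the deposited gene start. They end before the deposited gene starts, read 5′ to 3′ on the gene's strand and come from RefSeq on GRCm38.p6. Capitals mark matches, on either strand, to 4 motifs searched: ATTTGCAT (octamer), AGGAAGT (Ets-type), CAGGTG (E-box) and a longer palindromic Ebf-type motif given by name. A match on the other strand is printed as its reverse complement, and no matches overlapped in the stretches shown. Plcg2 lies on the plus strand at chr8:117498025-117498274, Cd72 on the minus strand at chr4:43454629-43454876 and Ptpn6 on the minus strand at chr6:124738715-124738959. Itpr2 lies on the minus strand at chr6:146502224-146502473 and Cd81 on the plus strand at chr7:143052500-143052738.
Plcg2: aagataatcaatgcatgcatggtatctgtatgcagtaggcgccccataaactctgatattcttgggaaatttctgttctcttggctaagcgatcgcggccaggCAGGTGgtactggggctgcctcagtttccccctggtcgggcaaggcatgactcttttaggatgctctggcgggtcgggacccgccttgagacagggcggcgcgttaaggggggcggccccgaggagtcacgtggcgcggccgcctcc
Cd72: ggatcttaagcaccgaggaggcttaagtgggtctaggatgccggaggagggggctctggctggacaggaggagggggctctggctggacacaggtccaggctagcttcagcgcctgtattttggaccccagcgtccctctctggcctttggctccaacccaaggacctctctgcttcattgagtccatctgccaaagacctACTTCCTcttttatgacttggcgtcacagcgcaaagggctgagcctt
Ptpn6: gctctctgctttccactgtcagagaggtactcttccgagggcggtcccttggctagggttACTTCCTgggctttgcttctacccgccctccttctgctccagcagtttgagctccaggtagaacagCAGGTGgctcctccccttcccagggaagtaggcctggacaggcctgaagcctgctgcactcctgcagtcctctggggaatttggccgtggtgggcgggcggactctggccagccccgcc
Itpr2: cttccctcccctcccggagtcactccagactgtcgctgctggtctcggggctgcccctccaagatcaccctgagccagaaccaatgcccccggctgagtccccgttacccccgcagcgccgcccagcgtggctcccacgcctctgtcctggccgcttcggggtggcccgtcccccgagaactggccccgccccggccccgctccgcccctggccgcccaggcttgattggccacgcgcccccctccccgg
Cd81: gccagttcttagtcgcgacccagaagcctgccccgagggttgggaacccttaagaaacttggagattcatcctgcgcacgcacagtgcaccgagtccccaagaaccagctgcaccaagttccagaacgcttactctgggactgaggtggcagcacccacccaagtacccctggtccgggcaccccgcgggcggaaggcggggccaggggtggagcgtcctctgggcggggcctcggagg

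The stretch of Plcg2 held an E-box, that of Cd72 an Ets-type match, and that of Ptpn6 one of each kind, while those of Itpr2 and Cd81 held no match. Of the 34 members, 29 are in the RefSeq table, with 42 windows of 250 bases before a start; the others are Cd79b, Lyn, Blk, Nfatc1 and Malt1. The Ets-type motif stood in 40.5% of these windows and in 7.69% of all 32851 windows, and the E-box in 31.0% against 17.2%. For the octamer and the Ebf-type motif the shares were 4.76% each, against 1.60% and 0.779% of all windows. The 15 members with an Ets-type match included the receptor chain Cd79a, the adaptors Blnk and Grb2, the phosphatases Ptprc and Inpp5d, and Vav1, Vav2 and Vav3. The octamer stood before Blnk and Prkcb, and the Ebf-type motif before Cd22 and Vav3. Member windows had a median GC content of 57.6%, against 52.4% over all windows. A match describes letters in a window and does not show that a factor binds there.

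Of the receptor chains, Cd79a (ENSMUSG00000003379, chromosome 7, 24897381 to 24902197, plus strand) stood above Cd79b (ENSMUSG00000040592, chromosome 11, 106311341 to 106314762, minus strand) in every library. Cd79a measured 1999, 1510 and 1651 FPKM in WT replicates 1 to 3 and 1700, 1884 and 1643 FPKM in CD40LΔ5 replicates 1 to 3. Cd79b measured 1359, 1289 and 1239 FPKM in the libraries labelled WT and 1210, 1335 and 1258 FPKM in those labelled CD40LΔ5. The ratio of Cd79a to Cd79b was lowest in WT replicate 2, at 1.17, and highest in WT replicate 1, at 1.47. By the labels the ranges of both chains overlapped, with log2 differences of 0.03 (95% interval -0.40 to 0.45) for Cd79a and -0.03 (-0.37 to 0.30) for Cd79b.

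Downstream of the chains, Syk, the kinase that docks on them, measured 243, 200 and 225 FPKM in WT replicates 1 to 3 and 235, 236 and 221 FPKM in CD40LΔ5 replicates 1 to 3. Btk, which phosphorylates PLCG2, measured 103, 91.9 and 90.7 FPKM in the first label and 100, 100 and 94.0 FPKM in the second. Blnk, the adaptor that holds BTK and PLCG2 together, measured 72.1, 66.2 and 70.7 FPKM and 70.7, 70.1 and 62.4 FPKM. For all 3 genes the labels overlapped, and WT replicate 2 was the lowest or next to lowest library. Lyn, the Src family kinase that also acts on inhibitory receptors, measured 130, 106 and 116 FPKM in the libraries labelled WT and 125, 129 and 110 FPKM in those labelled CD40LΔ5. Its lowest value again lay in WT replicate 2. Expressed per length, SYK-encoding RNA thus stood above that of BTK and BLNK in every library.

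In several gene families, 1 or 2 genes of the set held most of the RNA in every library. Blk gave 51.2% to 57.8% of the summed FPKM of the 5 Src family kinase genes compared and Lyn 27.0% to 33.0%. Fyn gave 4.17% to 5.54%, less than Lck, a kinase known from T cells, at 5.81% to 7.21%, and Fgr, known from myeloid cells, gave 3.42% to 3.87%. How much of Fyn, Lck and Fgr came from T and myeloid cells, whose markers are given above, was not tested. Pik3cd, the catalytic subunit typical of leukocytes, gave 69.3% to 73.3% of the catalytic PI3 kinase genes, and Pik3cg was next with 15.4% to 19.8%. Plcg2 gave 92.6% to 95.6% of the phospholipase C gamma pair, with Plcg1 as the rest. Inpp5d, the lipid phosphatase SHIP, gave 92.1% to 95.2% of the pair it forms with Inppl1. Vav1 gave 63.7% to 67.6% of the Vav genes, Vav2 29.1% to 32.7% and Vav3 3.03% to 3.95%. Among the NFAT genes of the set Nfatc1 gave 49.3% to 52.4%, Nfatc3 40.8% to 44.5% and Nfatc2 5.87% to 6.73%. Itpkb gave 82.2% to 85.1% of the IP3 3-kinase genes, and Akt1 64.5% to 67.5% of the pair it forms with Akt2. In the families given next, no gene of the set led throughout. Rasgrp3 gave 33.0% to 41.9% of the RasGRP genes and was below Rasgrp2, at 37.9%, in WT replicate 2. Pik3r1 gave 35.2% to 45.4% of the regulatory PI3 kinase genes and was below Pik3r2 in WT replicate 2 and CD40LΔ5 replicate 2. Itpr2 gave the smallest part of the IP3 receptor genes, 15.2% to 18.5%, and Itpr3, which is outside the set, gave 58.0% to 64.0%. Prkcb and Prkcd, 2 protein kinase C genes, were close, at 44.8% to 52.5% and 41.6% to 49.7% of the 3 compared.

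**Figure D2:**
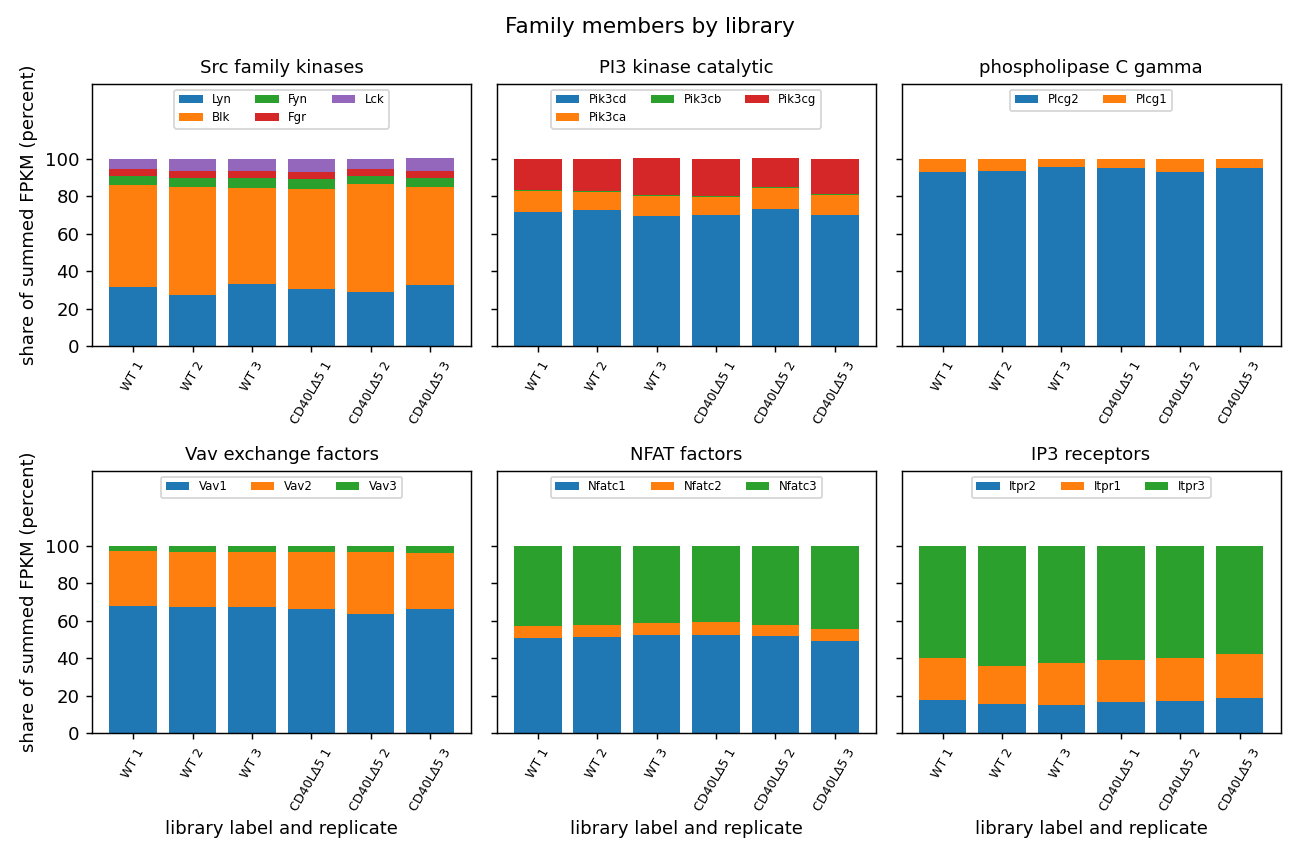
Share of the summed FPKM of a family that each gene held, in percent, in each library, for 6 families; each bar is 1 library and each colour 1 gene. The bars look alike across libraries: Plcg2 holds 92.6% to 95.6% and Pik3cd 69.3% to 73.3% of their families.

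The members did not take their extreme values evenly over the libraries. WT replicate 2 held the lowest value for 20 of the 34 members and CD40LΔ5 replicate 3 for 8. The highest value lay in CD40LΔ5 replicate 1 for 16 members, in WT replicate 1 for 12 and in CD40LΔ5 replicate 2 for 5. Such counts were not made for all genes tested, so whether they are particular to the members was not tested. Relative to each gene's own mean, the median member stood at 0.901 in WT replicate 2 and at 1.07 in CD40LΔ5 replicate 1. The median of all 11252 genes was 0.994 and 1.03 in the same libraries. When values were rescaled without immunoglobulin and histone genes, WT replicate 2 was the lowest for 23 members and CD40LΔ5 replicate 3 for 7. The place of the highest value moved more: on that scale it lay in CD40LΔ5 replicate 1 for 11 members and in WT replicate 3 for 8, and with median ratio scaling for 8 and 9, where WT replicate 3 had 1 as deposited. Of the phospholipase and calcium genes as deposited, Plcg2, Itpkb, Nfatc1, Nfatc2 and Nfatc3 were lowest in WT replicate 2, and Itpr2 in WT replicate 3. WT replicate 2 and CD40LΔ5 replicate 1 carry different labels and lie in different sets of the table, so this spread enters both comparisons.

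**Figure D3:**
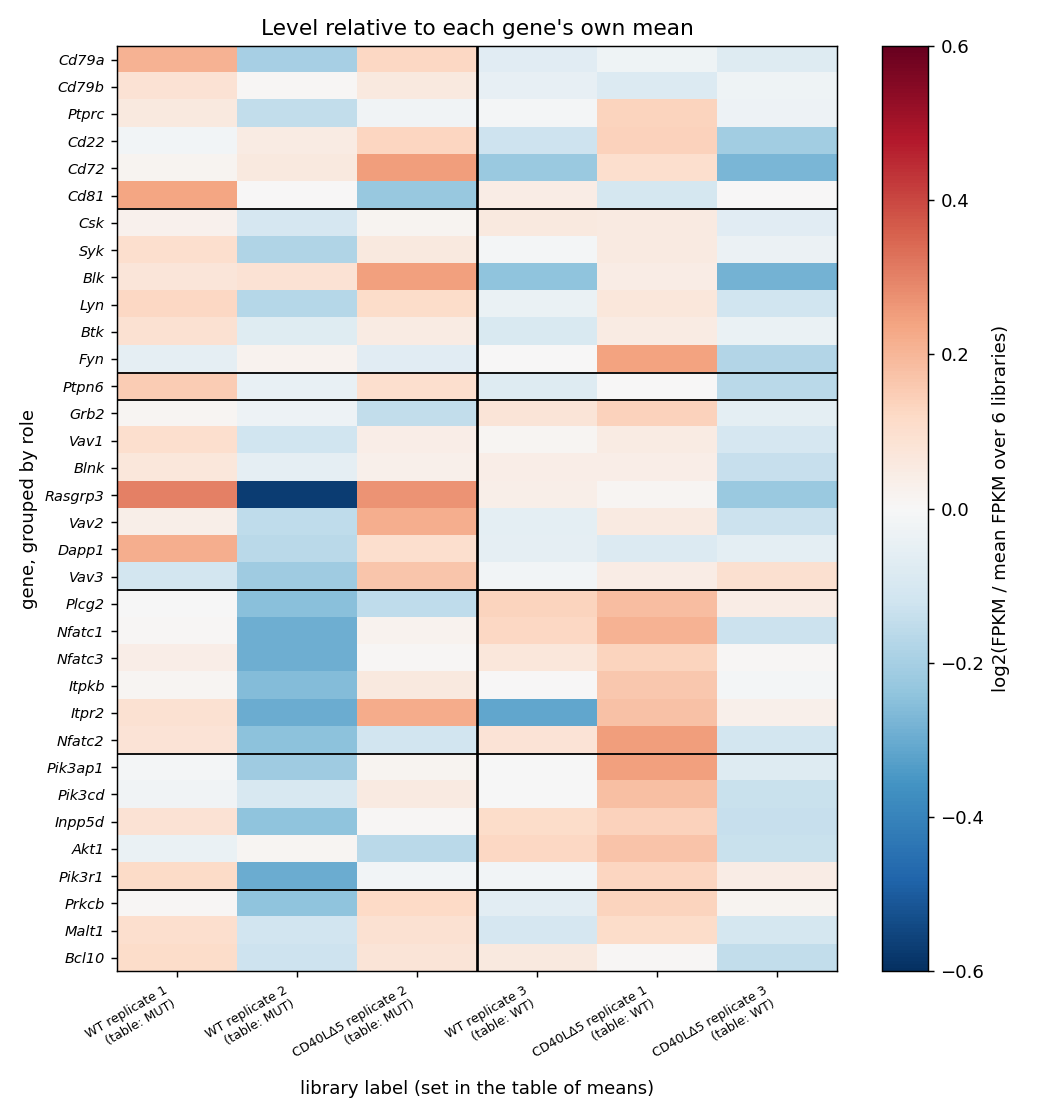
Colour gives log2 of FPKM over the gene's mean FPKM of the 6 libraries (red above, blue below), with genes in rows by role and libraries in columns; the vertical line divides the sets of the table of means. WT replicate 2 is blue for most genes (lowest for 20 of 34), and Rasgrp3 has the deepest blue there.

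Another pattern was noticed after the values were seen. Cd22, Cd72, Blk and Ptpn6 were the 4 members for which WT replicate 3 and CD40LΔ5 replicate 3 were the lowest pair of libraries. Cd22, a sialic acid-binding inhibitory receptor, measured 254 and 240 FPKM in these and 274 to 305 FPKM in the other libraries. Ptpn6, the phosphatase SHP-1 that such receptors recruit, measured 335 and 316 FPKM against 342 to 393 FPKM. That is 11.8% of the members, while this pair was lowest for 21.8% of all genes tested, so the members' share was below that of all genes. In the wider list, the same held for 9 of 13 other coreceptors and inhibitory receptors, among them Cr2, Fcgr2b, Siglecg and Pirb. Cr2, the complement receptor that lowers the threshold for BCR signalling, measured 94.2 and 97.5 FPKM in these libraries and 112 to 150 FPKM in the others. These libraries also had the highest neutrophil marker sums, 351 and 606 FPKM against 46.8 to 84.1 FPKM, and the highest immunoglobulin shares. The part of either in the pattern was not tested; without immunoglobulin and histone genes it held for the same 4 members and for 8 of the 13. In that setting the pair was lowest for 13.9% of all genes, close to the 11.8% of the members.

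The comparison by the labels asks whether BCR signalling genes differ between B cells of the 2 genotypes during the response. No member passed the test: 0 of 34 reached an adjusted p of 0.05 (limma on log2(FPKM + 1), adjusted over all genes tested), where 0% of the 11252 genes passed. With limma voom on reads recovered from the FPKM values it was also 0 members and 0 genes. At an unadjusted p under 0.05 there was also no member, against 1.24% of all genes (139), while voom and several other settings had 1. Log2 differences ran from -0.20 (Cd81) to 0.29 (Itpr2). They lay above 0 for 25 members, with a median of 0.05, and the median of all genes was 0.01. Without WT replicate 2 they lay above 0 for 15 members and below for 19, with a median of -0.02. The 95% intervals stayed under a 1.4-fold difference in either direction for 32 of the 34 members, and the widest, that of Rasgrp3, reached 1.56-fold.

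The ranges of the labels did not overlap for 3 members. Prkcb, the protein kinase C that links the receptor to NF-kB, measured 109, 91.8 and 104 FPKM in WT replicates 1 to 3 and 119, 118 and 110 FPKM in CD40LΔ5 replicates 1 to 3. The means were 102 ± 8.98 and 115 ± 4.87 FPKM (SD, n = 3), a log2 difference of 0.18 ± 0.10 (SE), which was 0.11 without WT replicate 2. Vav3, the least abundant Vav exchange factor, measured 3.86, 3.59 and 4.12 FPKM in the first label and 4.30, 4.67 and 4.45 FPKM in the second (log2 difference 0.17 ± 0.09 SE). For both genes every library labelled CD40LΔ5 lay above every library labelled WT, by a narrow gap. Cd81, a tetraspanin of the B cell coreceptor complex, was the one member whose range was wholly lower, at 102, 86.9 and 89.5 FPKM against 80.5, 74.1 and 86.9 FPKM. WT replicate 2 lay above CD40LΔ5 replicate 3 only beyond the rounding shown, and the log2 difference was -0.20 ± 0.10 (SE). It was -0.08 without WT replicate 1 and CD40LΔ5 replicate 2, and -0.13 or -0.14 without one of them. Of all genes tested, 2.98% had ranges wholly higher and 1.32% wholly lower in the libraries labelled CD40LΔ5, where the members had 2 and 1.

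The largest difference by the labels was that of Itpr2, an IP3 receptor that releases calcium from the endoplasmic reticulum (ENSMUSG00000030287, chromosome 6, 146108299 to 146502223, minus strand). It measured 13.9, 10.6 and 10.5 FPKM in WT replicates 1 to 3 and 14.7, 15.2 and 13.3 FPKM in CD40LΔ5 replicates 1 to 3. WT replicate 1 lay among the values of the other label, so the groups overlapped. The means were 11.6 ± 1.94 and 14.4 ± 0.962 FPKM (SD, n = 3), with a log2 difference of 0.29 ± 0.12 (SE; limma adjusted p = 1). Itpkb, the kinase that converts IP3 and so limits calcium release, measured 24.7, 20.4 and 24.5 FPKM against 27.4, 25.5 and 24.3 FPKM (log2 difference 0.15 ± 0.10 SE). On the lower side after Cd81 came Akt1, the kinase downstream of PI3 kinase, at 58.0, 60.2 and 65.1 FPKM against 67.2, 53.3 and 54.4 FPKM. CD40LΔ5 replicate 1 held the highest Akt1 of all libraries, while the other libraries of its label held the lowest. Grb2, an adaptor towards Ras, measured 172, 167 and 180 FPKM against 188, 154 and 164 FPKM, with the same arrangement.

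**Figure D4:**
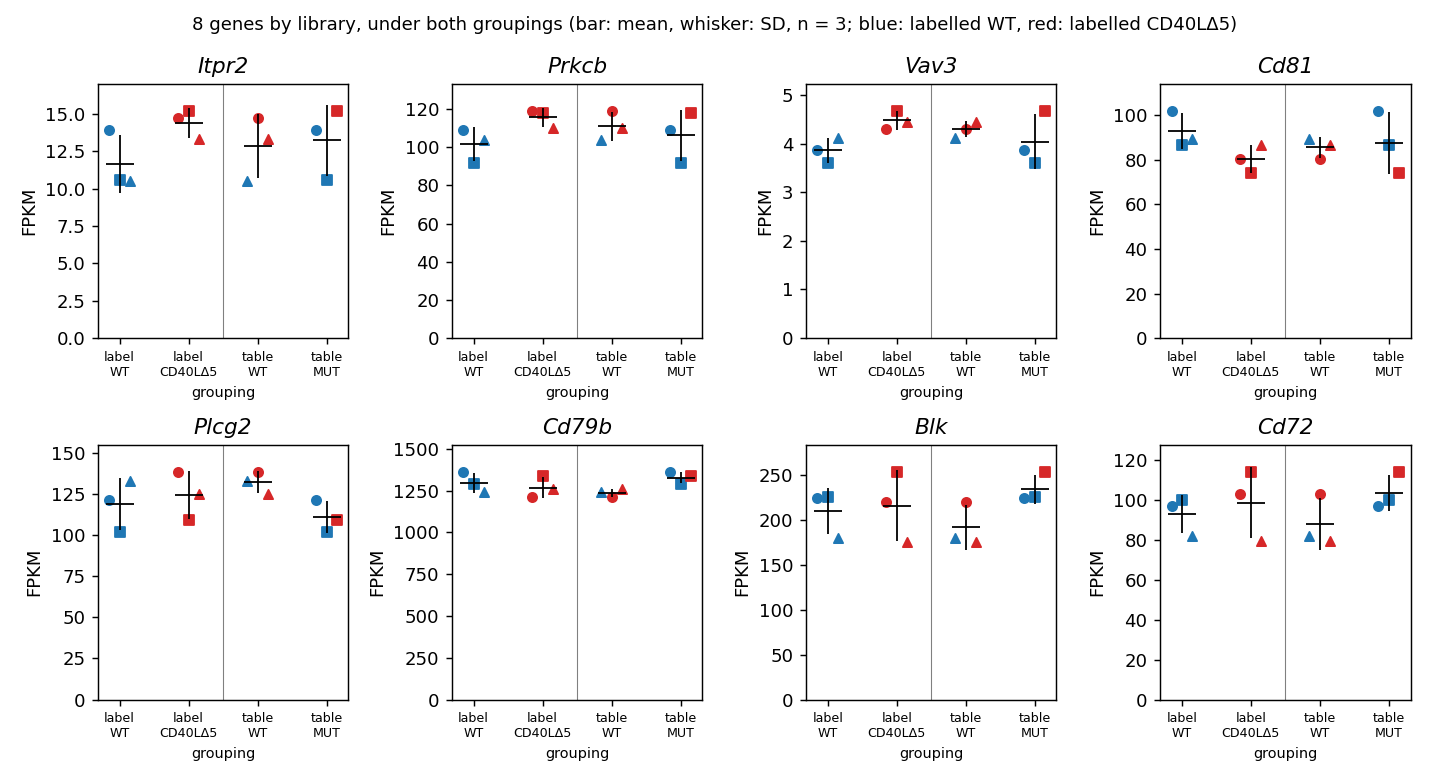
FPKM of 8 members in each library, grouped by the labels (left of each panel) and by the table of means (right); points are libraries, blue labelled WT and red labelled CD40LΔ5, the bar is the mean and the whisker the SD (n = 3), and axes start at 0. Prkcb, Vav3 and, barely, Cd81 separate by the labels, and Plcg2, Cd79b and Blk separate by the table.

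By the sets of the authors' table, no member passed either. The test called 0 of 34 members, against 0.0267% of all genes (3 of 11252; limma, adjusted p under 0.05), and the smallest adjusted p of a member was 0.356. Voom on the reads called 0 members and 2 genes. Plcg2 and Blk were the 2 members with an unadjusted p under 0.05, in a comparison where 13% of all genes (1463) reached that level. Log2 differences ran from -0.26 (Plcg2) to 0.30 (Blk), with 17 members above 0 and 17 below. Without immunoglobulin and histone genes the split was 13 above and 21 below, and with median ratio scaling 11 and 23. The 95% intervals stayed under a 1.4-fold difference for 31 of 34 members.

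In the MUT set every library was lower for the phospholipase gene Plcg2 and higher for the Src kinase gene Blk and the receptor chain gene Cd79b, none of them passing the test. Plcg2 (ENSMUSG00000034330, chromosome 8, 117498291 to 117635140, plus strand) measured 121 (WT replicate 1), 102 (WT replicate 2) and 109 FPKM (CD40LΔ5 replicate 2) in the MUT set. The libraries averaged as WT held 133 (WT replicate 3), 138 (CD40LΔ5 replicate 1) and 125 FPKM (CD40LΔ5 replicate 3). The ranges did not overlap, with a log2 difference of -0.26 ± 0.09 (SE; 95% interval -0.48 to -0.04; limma adjusted p = 0.356). Its labels overlapped and gave a log2 difference of 0.07 ± 0.14 (SE).

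Blk, a Src family kinase found mainly in B cells, measured 224, 226 and 253 FPKM in WT replicate 1, WT replicate 2 and CD40LΔ5 replicate 2. In WT replicate 3, CD40LΔ5 replicate 1 and CD40LΔ5 replicate 3 it measured 180, 220 and 175 FPKM. CD40LΔ5 replicate 1 lay just under the lowest library of the other set, and the log2 difference was 0.30 ± 0.11 (SE; limma adjusted p = 0.365). Without WT replicate 3 and CD40LΔ5 replicate 3, the libraries of highest neutrophil sum, it was 0.09. These libraries hold the lowest Blk values and lie in the WT set, so leaving them out had to shrink the difference. Only 1 library then remained in that set. Cd79b had ranges that did not overlap, with means of 1327 ± 35.4 FPKM in the MUT set and 1236 ± 23.8 FPKM in the WT set (SD, n = 3). Its log2 difference was 0.10 ± 0.11 (SE; limma adjusted p = 0.671). Of all genes tested, 12.1% had ranges wholly higher and 4.79% wholly lower in the MUT set, where the 34 members had 2 and 1.

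Cd72, an inhibitory receptor that recruits SHP-1, measured 97.1, 100 and 114 FPKM in the MUT set and 82.1, 103 and 79.3 FPKM in the WT set (log2 difference 0.24 ± 0.12 SE). CD40LΔ5 replicate 1 stood among the libraries of the other set, and the ranges overlapped. Without WT replicate 3 and CD40LΔ5 replicate 3, which hold the lowest Cd72 values, its log2 difference was 0.01. Here too the difference had to shrink, and only 1 library remained in the WT set. Ptpn6 had means of 372 ± 26.3 and 335 ± 18.9 FPKM (SD, n = 3; log2 difference 0.15 ± 0.10 SE). Dapp1, an adaptor recruited by PI3 kinase products, measured 24.6, 18.9 and 22.7 FPKM against 20.4, 20 and 20.3 FPKM, so that the WT set lay within the span of the others. The NFAT factors, which calcium signalling brings to the nucleus, all had lower means in the MUT set. Nfatc1 measured 46.2 ± 5.53 against 51.6 ± 6.09 FPKM, Nfatc2 5.74 ± 0.665 against 6.45 ± 0.805 FPKM and Nfatc3 38.3 ± 4.66 against 42.2 ± 1.81 FPKM (SD, n = 3). All 3 overlapped between the sets, with adjusted limma p of 0.538 to 0.581, and WT replicate 2 held the lowest value of each.

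**Figure D5:**
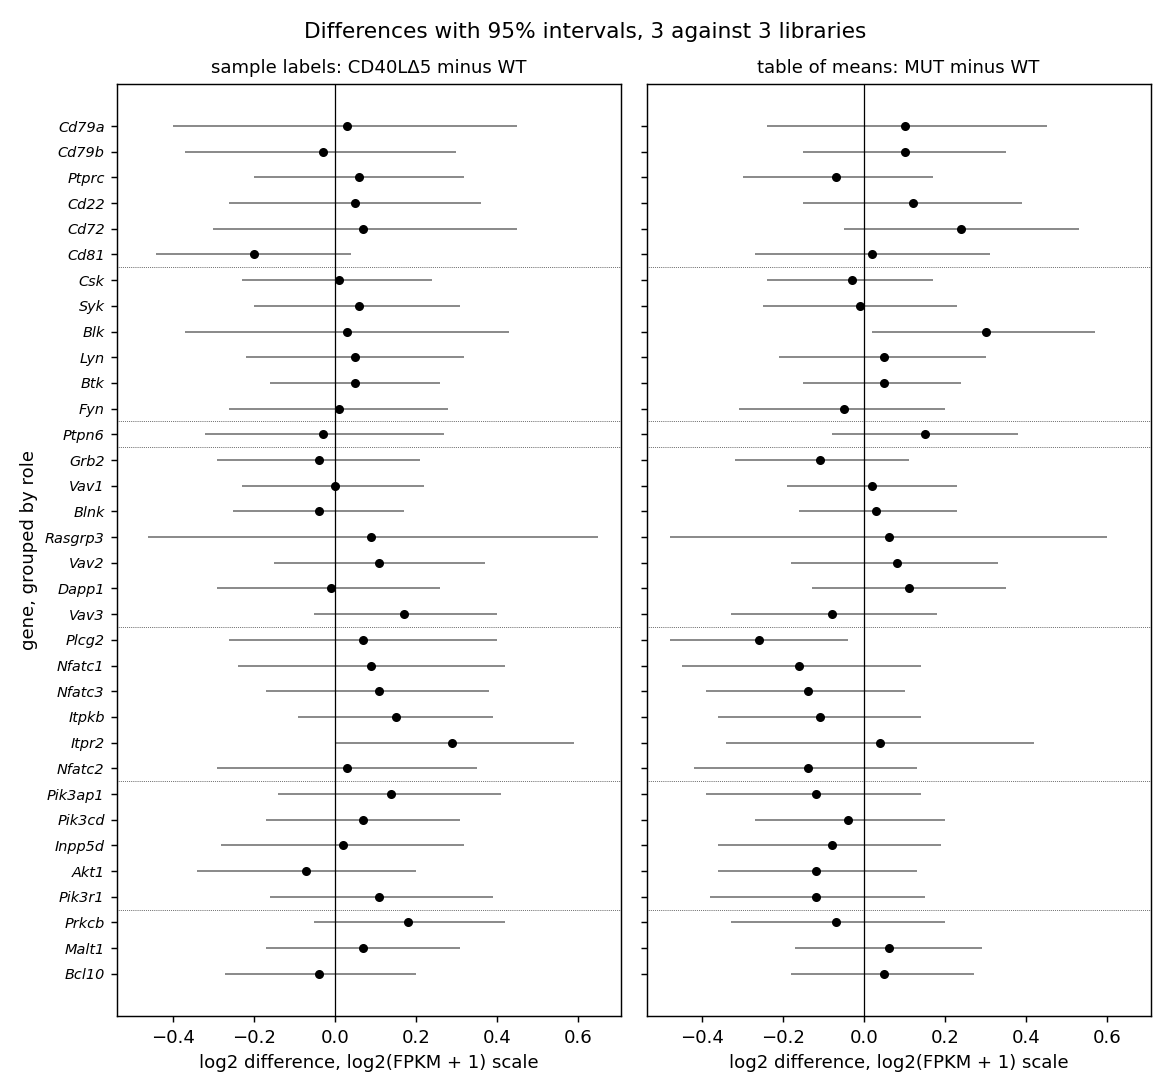
Log2 difference of each member on the log2(FPKM + 1) scale, by the labels (left, CD40LΔ5 minus WT) and by the table of means (right, MUT minus WT); points are estimates and lines 95% intervals, unadjusted, with 3 against 3 libraries. Every interval on the left includes 0, and on the right those of Plcg2 and Blk do not.

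Marker genes of several cell types leaned to one side between the sets of the table, although the summed levels of most lists overlapped. In the MUT set all 10 tested germinal centre genes, all 12 genes of dividing cells, all 9 plasma cell genes and all 10 neutrophil genes were on the lower side. The germinal centre sum was 49.6 to 157 FPKM in these and 112 to 207 FPKM in the others. For dividing cells it was 77.4 to 147 against 141 to 195 FPKM, for plasma cells 1193 to 5112 against 2185 to 4961 FPKM and for neutrophils 71.5 to 84.1 against 46.8 to 606 FPKM. All 6 marginal zone genes, all 9 tested natural killer cell genes, all 10 tested macrophage genes and all 7 erythroid genes were on the higher side. Their sums were 276 to 350 against 229 to 284 FPKM, 57.3 to 68.9 against 29.3 to 41.5 FPKM, 198 to 379 against 138 to 216 FPKM and 814 to 1019 against 313 to 1180 FPKM. Of 13 tested T cell genes 11 were on the higher side, with sums of 80.6 to 90.9 against 73.2 to 86.6 FPKM. By the labels all 10 macrophage, 7 erythroid and 9 plasma cell genes and 11 of 13 T cell genes were on the lower side in CD40LΔ5. Their sums were 148 to 216 against 138 to 379 FPKM in WT, 313 to 1180 against 623 to 1019 FPKM, 1193 to 4961 against 1418 to 5112 FPKM and 73.2 to 86.6 against 76.4 to 90.9 FPKM. Marginal zone genes (5 of 6; sums 229 to 301 against 230 to 350 FPKM) and natural killer cell genes (7 of 9; 29.3 to 68.9 against 35.5 to 62.6 FPKM) were mostly lower too. Germinal centre genes (9 of 10; 68.6 to 207 against 49.6 to 195 FPKM) and neutrophil genes (8 of 10; 46.8 to 606 against 71.5 to 351 FPKM) were mostly on the higher side. None of these genes passed over all genes, and their part in the values of Plcg2, Blk, Cd72 and the other members was not tested.

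The members not given by library were spread in the same narrow way. Ptprc, the phosphatase CD45 that primes Src kinases, spanned 293 to 356 FPKM, and Csk, the kinase that restrains them, 247 to 276 FPKM. In the PI3 kinase arm, Pik3cd spanned 70.5 to 87.5 FPKM, its regulatory partner Pik3r1 14.8 to 19.9 FPKM and the adaptor Pik3ap1 75.1 to 103 FPKM. Inpp5d, which removes a phosphate from the PI3 kinase product, spanned 65.3 to 84.8 FPKM. Malt1 and Bcl10, partners in the complex that activates NF-kB, spanned 49.2 to 57.5 and 43.8 to 52.3 FPKM. Of the Vav exchange factors, Vav1 spanned 74.0 to 86.2 FPKM and Vav2 32.8 to 42.5 FPKM. Fyn spanned 17.1 to 22.8 FPKM, with its highest value in CD40LΔ5 replicate 1, where Lck was also highest at 29.6 FPKM. For each of these 11 genes of the set the ranges overlapped in both groupings.

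The wider BCR pathway, 99 further genes of which 94 were tested, also had no gene that passed in either comparison. By the labels 67 were on the higher and 27 on the lower side, with a median log2 difference of 0.04 against 0.01 for all genes. Of all genes 1.24% had an unadjusted limma p under 0.05, and of these 94 genes 1 did. That gene was Cbl, a ubiquitin ligase that limits BCR signalling, at 14.6, 13.7 and 14.6 FPKM in WT replicates 1 to 3 and 18.3, 16.6 and 16.4 FPKM in CD40LΔ5 replicates 1 to 3. Every library labelled CD40LΔ5 lay above every library labelled WT, as for 2.98% of all genes (log2 difference 0.25 ± 0.08 SE, limma adjusted p = 1). Itpr1, another IP3 receptor, had a log2 difference of 0.27 ± 0.11 (SE), near that of Itpr2. On the lower side the smallest p were those of Rcan1, an inhibitor of calcineurin, and Map2k2, a kinase of the ERK cascade, at -0.12 ± 0.10 and -0.08 ± 0.09 (SE).

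In the sets of the table, 51 of the 94 were on the higher and 43 on the lower side (median log2 difference 0.02), and 9 had an unadjusted p under 0.05, a level that 13% of all genes reached. All 13 coreceptors and inhibitory receptors were on the higher side in the MUT set, with a median log2 difference of 0.27 against 0.05 for all genes. Of them 4 had an unadjusted limma p under 0.05. For 9 of the 13, WT replicate 3 and CD40LΔ5 replicate 3, both in the WT set, were the lowest pair, as given above. The part of those libraries in this lean was not tested. Lair1, an inhibitory collagen receptor also known from myeloid cells, measured 3.92, 2.66 and 3.26 FPKM in the MUT set. In the WT set it measured 1.34, 1.97 and 2.09 FPKM (log2 difference 0.61 ± 0.16 SE, limma adjusted p = 0.343). Plcg1 and Pik3cg went opposite ways to each other: Plcg1 measured 9.39, 7.36 and 8.73 against 6.18, 7.07 and 6.37 FPKM (log2 difference 0.33 ± 0.11 SE; limma adjusted p = 0.352). Pik3cg measured 17.7, 17 and 16.8 against 22, 24.7 and 19.2 FPKM (log2 difference -0.33 ± 0.10 SE; limma adjusted p = 0.349). Plcg1 was thus on the higher side where Plcg2 was on the lower, and for Lair1, Plcg1 and Pik3cg the ranges of the sets did not overlap. Dock8, an exchange factor for Cdc42, had a log2 difference of -0.21 ± 0.10 (SE), and its ranges did not overlap either.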

How the data were processed

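Bulk RNA of splenic B cells isolated with a magnetic pan-B kit was sequenced as 6 libraries; the TruSeq RNA kit named in the labels' protocols does not mark strand, so overlapping genes cannot be told apart. The authors deposited FPKM per gene and library, and a table of FPKM means. Without saying what each was used for, the submitters' processing notes list mm9, STAR, DESeq2 and CASAVA 1.8.2; of the 34 members, 25 have exactly the start and end of GENCODE M21 on GRCm38, so deposited coordinates are given as GRCm38. The sources used here name no counting tool or filter. FPKM times gene length gave whole reads for 100% of values (tolerance 0.01 reads).

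The 11252 genes whose mean reached 1 FPKM entered limma 3.58.1 in R 4.3.3 (eBayes with a trend, two-sided) on log2(FPKM + 1), with Benjamini-Hochberg adjustment over all of them and a threshold of 0.05; this scale understates the change of low genes. Groups came from the labels, and then from the table of means, each column of which equals the mean of 3 libraries to within 3.33e-08 FPKM. The members, the gene lists, the tests and the comparison by the table were chosen with earlier results of these data known. Values in every library are given for the chain Cd79a, Cd79b, Syk, Lyn, Btk, Blnk and Plcg2, for the 4 smallest p on each side and for ranges that do not overlap; Rasgrp3 and Cd22 were added after their values were seen. Of Cr2, listed more than once, the longer entry was used. The procedure was tested on simulated data. Alternatives changed the pseudocount, filter, scaling or variance estimate, dropped immunoglobulin and histone genes before scaling, added a replicate block, ran voom on reads, or omitted libraries. Some genes of the wider lists are not reported by name here.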

Additional observations from a re-analysis of the deposited data

How the results depend on the processing

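No setting called a member in either comparison, and by the labels every setting called 0 genes. By the table, where 3 genes were called, the count was 5 with a pseudocount of 0.1, 6 with robust variances, 1 without a filter and with quantile normalization, and 0 with a filter at 5 FPKM. Pairs of libraries were also left out, in settings added after seeing the data. These were WT replicate 1 and CD40LΔ5 replicate 2, the libraries of lowest germinal centre sum, and WT replicate 3 and CD40LΔ5 replicate 3, those of highest neutrophil sum. Each pair lies in the same set of the table, so by the table only 1 library remained there and only log2 differences are given. Leaving out 1 library gave 1 to 16 genes by the table: 13 without WT replicate 2, 16 without CD40LΔ5 replicate 1 and 1 without CD40LΔ5 replicate 2. The replicate block left the count by the labels at 0. The deviations of same-numbered libraries correlated at -0.38, 0.06 and 0.38, and 3 of 6 libraries correlated best with their own number. With 3 libraries per label, this cannot decide whether the numbers pair the libraries. For the table sets no paired fit was made, since only replicate number 1 lies on both sides.

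Of 14 members fitted by the labels, 8 changed sign in some setting, in 14 of 279 fits. With quantile normalization Cd79b came to 0.05 and Grb2 to 0.04. Without the libraries of highest neutrophil sum Blnk came to 0.03, Akt1 to 0.02 and Grb2 to 0.01, and without those of lowest germinal centre sum Grb2 came to 0.02. Leaving out 1 library gave -0.06 to 0.14 for Cd79a, -0.02 to 0.12 for Syk, -0.02 to 0.13 for Lyn, -0.08 to 0.02 for Blnk, -0.04 to 0.16 for Plcg2 and -0.12 to 0.02 for Grb2. In the table sets, 6 of 14 members changed sign, in 16 of 266 fits. Without the libraries of lowest germinal centre sum Cd79a came to -0.14, Lyn to -0.15, Btk to -0.05, Blnk to -0.04 and Dapp1 to -0.09. Those fits rest on 1 library in the MUT set. Without the libraries of highest neutrophil sum, which leaves 1 library in the WT set, Lyn came to -0.05, Btk to -0.03 and Blnk to -0.03. Syk came to 0.14 with quantile normalization. Blnk came to -0.02 with median ratio scaling and with voom, and to -0.01 without immunoglobulin and histone genes. Leaving out 1 library gave -0.06 to 0.08 for Syk, -0.01 to 0.14 for Lyn and -0.03 to 0.07 for Blnk. The cause was not tested. Itpr2, Prkcb, Vav3 and Cd81 by the labels, and Plcg2, Blk and Cd79b by the table, kept their sign in every setting run, but not their size. Blk ranged from 0.09, with 1 library left in the WT set, to 0.44, and Cd81 from -0.28 to -0.08.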
